A study of Caenorhabditis elegans with 2 samples.

Results

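The regions described here are 425 weaker binding calls for the protein ZK546.5, each lying beside the start of protein-coding genes on 1 strand only. They were chosen from 30000 calls made on pooled chromatin immunoprecipitation sequencing (ChIP-seq) data, ranked by the deposited signal value. A call belonged if it ranked after the first 261 calls and no lower than 2000, if it overlapped none of the 261 peaks in the authors' thresholded set, and if its summit lay within 500 bp of annotated coding 5′ ends on a single strand. Of the 1739 calls in that range, 3 overlapped a thresholded peak, 1209 had no coding 5′ end near the summit and 102 had coding 5′ ends on both strands. The 425 remaining calls were nearest to 420 different genes. Rank and signal chose these calls and are given only as a description.

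Chromatin came from whole Caenorhabditis elegans at the third larval stage (L3), with males and females pooled and the age not known. All worms were of strain OP231, genotype unc-119(ed3) III; wgIs231, 1 transgenic line in which ZK546.5 carries GFP and FLAG at its C terminus. There were 2 biological replicates of this 1 group, with no untagged or mock group among the samples, and the chromatin was sonicated. The promoter driving the transgene was not given in the sources used here, and signal from whole animals cannot be assigned to a tissue.

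A transcription factor that acts at a promoter usually sits just upstream of where transcription begins. In the worm many transcripts are trans-spliced to a leader, so an annotated 5′ end often marks the splice site and not the point where transcription started. Genes may also lie in operons, where a downstream gene has no promoter of its own, or head to head, where a single intergenic stretch serves both directions. Calls with coding 5′ ends on only 1 strand have a defined upstream and downstream side. Thresholding by the irreproducible discovery rate (IDR) is meant to keep calls that rank alike between lists, and the calls beneath it hold weak sites together with background. A call beneath it need not rank unlike in the 2 replicates. The call at nduf-11, for example, ranked 317 in replicate 1 and 294 in replicate 2 but was not kept.

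The sequences around the strongest calls show what lies under such weak summits. Each is the summit base with 50 bp on either side, read 5′ to 3′ on the strand of the nearest gene, on build ce11. Capitals mark any of 4 words of 6 bases, which are ACGCAG and GACGCA, then CGAGAC and ACCGTA, on either strand, so that CTGCGT stands for ACGCAG read on the other strand. ACGCAG and GACGCA can overlap, and together they form GACGCAG. The words were taken up because they were known from earlier results on the thresholded peaks of the same experiment, so their presence is not an independent observation. The 6 strongest calls on chromosomes II to V and X are shown first, to let calls with and without a word be compared. They are rpb-11 at chrII:14059917-14060017 (plus strand), rps-24 at chrIV:385545-385645 (plus strand), chil-10 at chrX:957912-958012 (plus strand), pdhk-2 at chrIII:8741632-8741732 (minus strand), Y73F8A.26 at chrIV:15473977-15474077 (plus strand) and Y17G7B.21 at chrII:11977123-11977223 (minus strand).
rpb-11: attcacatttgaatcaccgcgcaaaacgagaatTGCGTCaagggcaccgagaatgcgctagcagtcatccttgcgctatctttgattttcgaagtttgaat
rps-24: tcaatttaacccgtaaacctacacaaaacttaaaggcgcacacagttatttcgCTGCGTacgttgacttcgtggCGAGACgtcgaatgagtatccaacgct
chil-10: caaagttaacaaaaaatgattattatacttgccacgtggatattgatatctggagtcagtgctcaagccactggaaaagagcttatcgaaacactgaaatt
pdhk-2: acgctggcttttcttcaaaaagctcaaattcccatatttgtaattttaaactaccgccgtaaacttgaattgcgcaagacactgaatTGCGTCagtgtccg
Y73F8A.26: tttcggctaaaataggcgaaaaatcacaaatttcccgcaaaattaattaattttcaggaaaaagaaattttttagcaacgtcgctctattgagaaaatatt
Y17G7B.21: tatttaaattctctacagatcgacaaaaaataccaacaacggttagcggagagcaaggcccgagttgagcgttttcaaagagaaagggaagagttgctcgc

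Of these 6 windows, those of rpb-11, rps-24 and pdhk-2 held at least 1 word, and those of chil-10, Y73F8A.26 and Y17G7B.21 held none. The 3 summits with a word lay upstream of their gene, and the 3 without one lay downstream of the annotated 5′ end. The next strongest calls on those chromosomes that held ACGCAG are shown because this word occurs in them at different distances from the gene and on both strands. They are lin-66 at chrIV:13887567-13887667 (plus strand), ccdc-47 at chrIII:3916542-3916642 (plus strand), tag-281 at chrII:12459604-12459704 (plus strand) and hrpu-2 at chrIV:2177729-2177829 (plus strand).
lin-66: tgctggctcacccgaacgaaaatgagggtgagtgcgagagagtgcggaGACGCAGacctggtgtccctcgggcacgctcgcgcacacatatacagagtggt
ccdc-47: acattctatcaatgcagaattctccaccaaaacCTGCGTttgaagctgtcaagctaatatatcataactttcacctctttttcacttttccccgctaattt
tag-281: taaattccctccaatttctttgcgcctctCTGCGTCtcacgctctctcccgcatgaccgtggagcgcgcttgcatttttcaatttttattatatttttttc
hrpu-2: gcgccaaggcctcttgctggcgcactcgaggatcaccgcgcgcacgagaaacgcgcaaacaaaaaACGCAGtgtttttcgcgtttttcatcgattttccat

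In lin-66 the word read on the gene's own strand and overlapped GACGCA, and the same overlap lay on the other strand in tag-281. In hrpu-2 ACGCAG stood on the gene's strand, and in ccdc-47 on the other. The summits lay 462 bp upstream of lin-66, which encodes a regulator of developmental timing, 375 bp upstream of ccdc-47, 107 bp upstream of tag-281 and 117 bp upstream of hrpu-2, an hnRNP U family gene. The replicates did not rank them alike. Replicate 2 placed lin-66 at rank 417 and replicate 1 at 2215, hrpu-2 was at rank 463 in replicate 2 and 22021 in replicate 1, and tag-281 was at rank 350 in replicate 2 with no call in replicate 1. Only ccdc-47 of these 4 ranked higher in replicate 1, at 1650 against 2585.

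The signal of the 425 calls ran from 28.7 to 50.9, with a median of 32.8. This value is the caller's own measure, and its scale differs between lists. The strongest call had its summit on chromosome II at 14059967, between genes and 118 bp upstream of rpb-11 (WBGene00012187, chromosome II from 14060085 to 14060624), a subunit of RNA polymerase II. Its signal was 50.9 in the pooled list, 25.8 in replicate 1 (rank 432) and 22 in replicate 2 (rank 588), so it stood well inside the strong part of both lists. The next, at 385595 on chromosome IV, was 292 bp upstream of rps-24 (WBGene00004493), a protein of the small ribosomal subunit, with a signal of 50.8 in the pooled list, 15.9 in replicate 1 (rank 5053) and 21.6 in replicate 2 (rank 621). The third lay 81 bp downstream of the 5′ end of chil-10, a chitinase-like gene on X, in its first coding exon. It showed the opposite order, with a signal of 29.2 in replicate 1 (rank 271) and 11.6 in replicate 2 (rank 6783).

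Several further genes among the 20 strongest calls have known roles in RNA handling, folding and traffic. The call 49 bp upstream of pash-1, the partner of Drosha in microRNA processing, ranked 332 in replicate 1 and 439 in replicate 2. That of bag-1, a co-chaperone, lay 187 bp upstream and ranked 167 and 1479, and that of cmtr-1, an mRNA cap methyltransferase, lay 197 bp upstream and ranked 739 and 249. Both replicates thus held these 3 calls within their strongest 2000. By contrast apb-1, a beta subunit of clathrin adaptors, ranked 24446 in replicate 1 and 161 in replicate 2, with the summit 208 bp upstream. The call 257 bp upstream of Y48G1C.8 had no partner in replicate 1 and ranked 224 in replicate 2. The remaining genes of the 20 were pdhk-2, which encodes a pyruvate dehydrogenase kinase, Y73F8A.26, Y17G7B.21 with 2 calls, T26G10.1, nduf-11, unc-16, bet-2, dpy-23, nhr-117, ima-2 and srh-95.

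The ends of the range were not marked by a step in signal. The calls just above it that met the same position rule, at mekk-3 (rank 257) and chat-1 (rank 258), had signals of 52.2 and 52.1 and were thresholded peaks. The 3 highest members had signals between 50.6 and 50.9, and the 3 lowest, at C37A2.7, cpg-24 and acdh-5, had 28.8, 28.7 and 28.7. Just beyond the last of them, the next calls by the position rule, at btf-1 and gldr-2, both had 28.7. The lower end is therefore a number of calls and not a boundary in the data.

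Most of the weak calls lay upstream of their gene. The summit was upstream of the nearest coding 5′ end in 279 of the 425 calls, 65.6% (exact binomial 95% interval 60.9 to 70.2), and at or downstream of it in 146. Among the single-direction calls ranked from below 2000 to 30000, which passed through the same processing, 2918 of 5263 lay upstream, 55.4%. Among thresholded peaks at single-direction promoters the share was 97 of 103, 94.2%. The weak calls thus lay between the other classes. Against the lower ranks the odds ratio of lying upstream was 1.53 (two-sided Fisher's exact test, adjusted p = 4.58e-05 over 2 tests), and against the thresholded peaks it was 0.127 (adjusted p = 8.13e-10). Calls share the same 2 replicates, so these tests describe this experiment only.

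The difference from the lower ranks rested on replicate 2. When the same ranks were taken from the list of replicate 1 alone, 57% of 377 calls lay upstream, the odds ratio against its lower ranks was 1.15, and the call was lost (Fisher's exact test, adjusted p = 0.182). In the list of replicate 2 alone 70.1% of 428 calls lay upstream, with an odds ratio of 2.07 (Fisher's exact test, adjusted p = 9.52e-12). The difference from the thresholded peaks passed the test in both lists, with odds ratios of 0.0884 and 0.156 (adjusted p = 4.63e-14 and 3.07e-08 by Fisher's exact test).

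**Figure D1:**
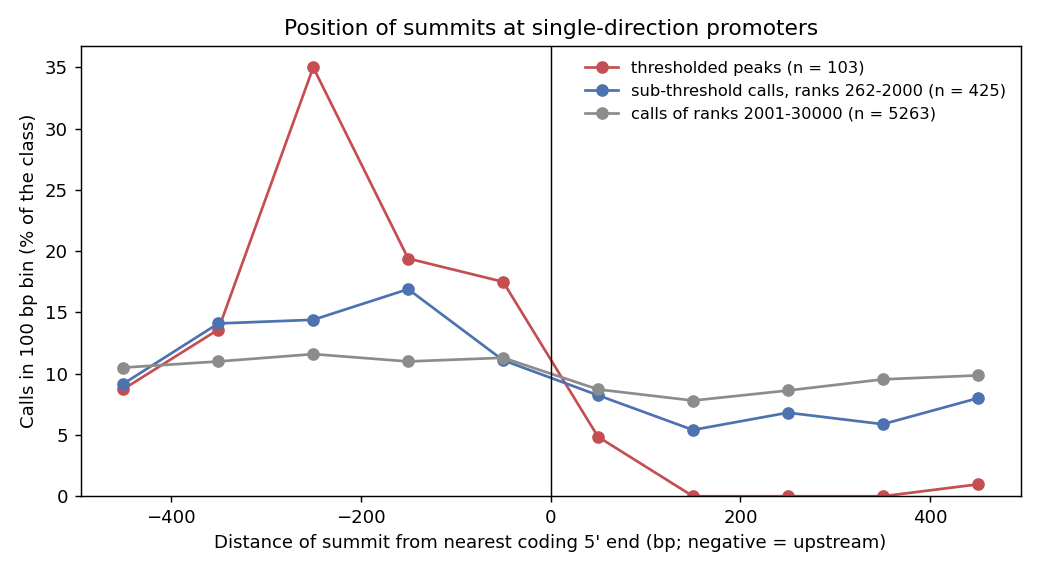
Share of calls in each bin of 100 bp (vertical axis, percent of the class) by signed distance of the summit from the nearest coding 5′ end (horizontal axis, bp, negative upstream) for thresholded peaks, the 425 weak calls and lower-ranked calls. Thresholded peaks gather upstream with 35.0% between 300 and 200 bp before the 5′ end, the weak calls have a low rise upstream that is highest at 16.9% between 200 and 100 bp, and the lowest class is nearly flat.

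Upstream summits did not crowd against the 5′ end. Of the 279, 195 lay from 100 to 400 bp before it, both ends included, and 45 lay closer than 100 bp, with a median distance of 238 bp against 221 bp for the thresholded peaks. Downstream the calls were spread over the whole 500 bp, with a median of 248.5 bp, whereas 5 of the 6 downstream thresholded summits lay within 100 bp. The 5 strongest downstream calls were at chil-10, at Y73F8A.26 (367 bp, intron), at Y17G7B.21 (488 bp, coding exon), at nhr-117 (283 bp, coding exon), which encodes a nuclear hormone receptor, and at srh-95 (355 bp, intron), a chemoreceptor gene. Rank within the range made little difference to side. The upstream share was 70.2% down to rank 500, 61.6% from there to rank 1000, 67.0% in the next 500 ranks and 65.4% in the last 500, with overlapping intervals. It was 61.6% between ranks 2000 and 5000 and 54.3% between ranks 20000 and 30000.

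**Figure D2:**
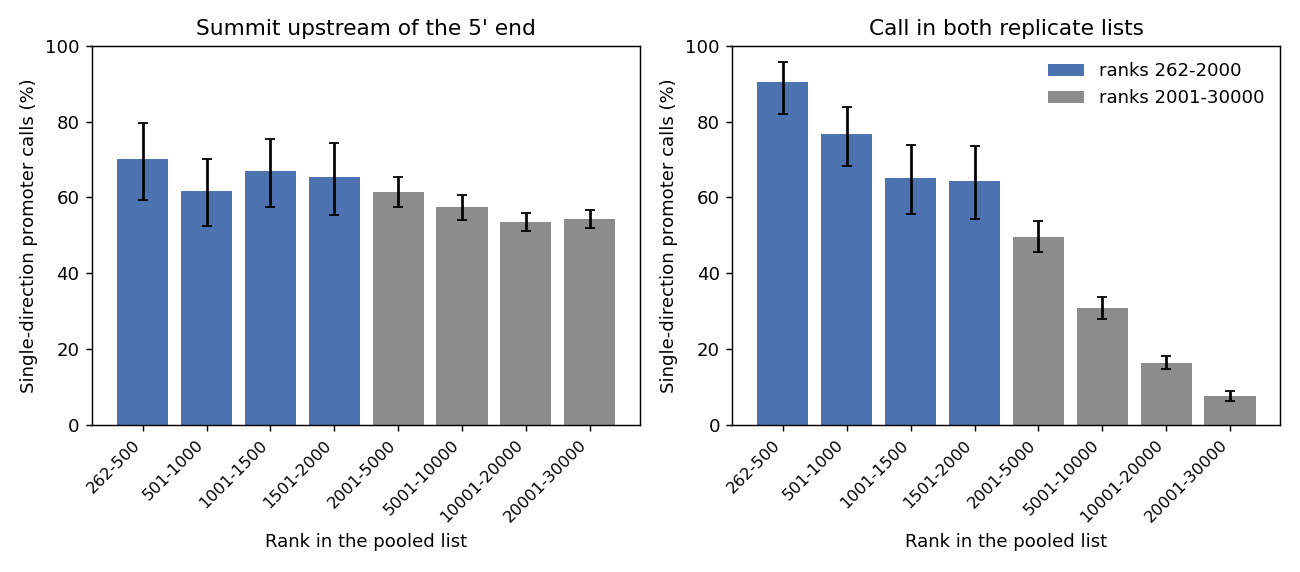
Percent of single-direction promoter calls with an upstream summit (left) and with a call in both replicate lists (right), by rank in the pooled list. Bars are shares with exact binomial 95% intervals, blue for the ranks described here and grey for lower ranks. The upstream share stays between 61.6% and 70.2% down to rank 2000, while the share found in both lists falls from 90.5% to 64.4% over the same ranks and to 7.57% at the end of the list.

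Over all 425 calls, 251 summits (59.1%) were intergenic, 82 (19.3%) lay in introns, 51 (12%) in coding exons, 34 (8%) in untranslated exons and 7 (1.65%) in non-coding genes. Of the upstream calls 87.8% were intergenic, and of the downstream calls 52.7% were intronic and 32.2% lay in coding exons, a contrast that the definition of side largely fixes. Among the thresholded peaks 79.6% were intergenic and 1 of 103 was in a coding exon. The upstream neighbour of the nearest gene ran in the same direction (tandem) for 264 of the 425 calls, 62.1%, near the 60.3% of the lower ranks, against 49.5% of thresholded single-direction peaks. For another 147 it ran head to head, with a 5′ end on the other strand that lay beyond 500 bp of the summit. The nearest gene began within 500 bp of the end of a same-strand neighbour for 130 calls. The median gap to the upstream neighbour was 767 bp. The calls were spread over all 6 chromosomes, from 52 each on III and X to 87 on V.

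Both replicate lists held a call at most of these sites, but seldom a strong one. Within 200 bp of the pooled summit, 312 of 425 calls (73.4%, 68.9 to 77.6) had a call in each replicate list. The background share over the other nuclear calls of the same ranks was 70.3%, which lies inside that interval, and over single-direction calls of lower rank it was 19.8%. The pooled list comes from the same reads, so this share was not tested. A call only in replicate 1 was found for 65, only in replicate 2 for 45, and in neither for 3, at Y48G10A.6, gcst-1 and B0511.12. Among the strongest 2000 of both lists there were 44 (10.4%, 7.62 to 13.6), against a background of 5.72%. Of these 44, 34 came from the 84 calls down to rank 500 (40.5% of them), 9 from the next 125 calls, down to rank 1000, and 1 from the rest. Single-direction calls made up 35.4% of nuclear calls down to rank 500 and 20.8% in the last 500 ranks, so the members and their background differ in rank. Of the 425, 131 (30.8%) were among the strongest 2000 of neither list. Of the thresholded single-direction peaks 86.4% were among the strongest 2000 of both. The median rank of those with a call was 2763 in replicate 1 and 2039 in replicate 2. The strongest 261 of replicate 1, a number equal to that of the thresholded set, held 20 of the 425, and those of replicate 2 held 9. None was in both, which the rule largely fixes by leaving out the first 261 pooled calls and overlaps with thresholded peaks.

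The 10 calls that both replicates ranked best were led by nduf-11, whose human namesake is a subunit of respiratory complex I. Its summit lay 271 bp upstream on chromosome II at 11345891, and it ranked 317 in replicate 1 (signal 27.6) and 294 in replicate 2 (signal 29.9). Next came the downstream call of Y17G7B.21 (428 and 299), pash-1 (332 and 439) and a call in an untranslated exon of mdt-26, a Mediator subunit gene, 409 bp downstream of the 5′ end (514 and 479). They were followed by dpy-23, which encodes the mu subunit of the AP2 clathrin adaptor, with its summit 399 bp upstream (560 and 384), and by rpb-11. The last of the 10 were cept-2, a gene of phospholipid synthesis, 319 bp upstream (698 and 455), Y51H7C.7, 128 bp upstream (559 and 723), ima-2, an importin alpha gene, 324 bp upstream (725 and 286), and cmtr-1. In all, 13 calls were among the strongest 1000 of both lists.

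The strongest calls missing from 1 list were strong in the other, which their choice by pooled signal, made from both replicates, largely fixes. Apart from Y48G1C.8, these were nhr-110, 439 bp upstream, at rank 117 in replicate 1 and with no call in replicate 2, and likewise K05C4.7 at rank 158 and wdr-37 at rank 140 in replicate 1. The last of the 5, tag-281, was at rank 350 in replicate 2 with no call in replicate 1. Each of the 5 was upstream and intergenic.

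**Figure D3:**
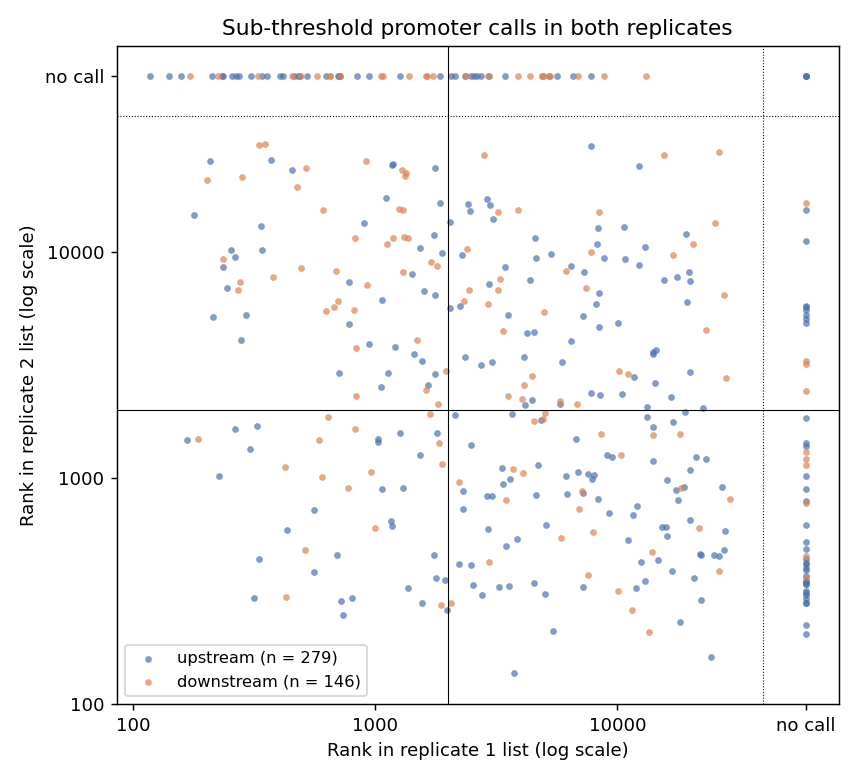
Rank of each of the 425 calls in the list of replicate 1 (horizontal, log scale) and of replicate 2 (vertical, log scale), with calls missing from a list placed beyond the dotted lines. Solid lines mark rank 2000. Few points, 44, lie in the lower left where both ranks are among the strongest 2000, and upstream calls (blue) are among the strongest 2000 of replicate 2 (47%) more often than of replicate 1 (33%).

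The replicates differed in the side they favoured. Of the upstream calls 33% (27.5 to 38.8) were among the strongest 2000 of replicate 1 and 47% (41 to 53) among those of replicate 2. Of the downstream calls the shares were 46.6% (38.3 to 55) and 32.2% (24.7 to 40.4). Of the 204 calls ranked better by replicate 1, 56.4% lay upstream, and of the 218 ranked better by replicate 2, 73.9%. This division was made after the values were seen and was not tested. In the lower ranks it gave 55.0% and 55.6%, and among the thresholded single-direction peaks 93.9% and 94.1%. Calls of the same ranks with coding 5′ ends on both strands also gave unequal shares, 73.7% (28 of 38) and 87.5% (56 of 64), by side of the nearest 5′ end. GC content moved with it, at 31.6% ± 6.78 (SD over calls, n = 204) for calls ranked better by replicate 1 and 35.0% ± 8.4 (n = 218) for the others, and its part in the result was not tested.

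GC content in the 200 bp around the summit was 33.3% ± 7.82 (SD over calls, n = 425). It was 43.0% ± 7.86 in thresholded single-direction peaks (n = 103) and 32.3% ± 6.66 in the lower ranks (n = 5263), so the weak calls lay nearer to the latter. Within the range it was 36.2% down to rank 500 and 31.8% in the last 500 ranks.

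At least 1 of the 4 words stood within 50 bp of the summit in 52 of the 425 calls, 12.2% (9.27 to 15.7). The same windows held one in 52.4% of thresholded single-direction peaks and in 7.39% (6.70 to 8.13) of the lower ranks. Of the upstream calls 16.1% (12 to 21) held a word, and of the downstream calls 4.79% (1.95 to 9.63). Taken singly, GACGCA stood in 29 calls (6.82%), ACGCAG in 19 (4.47%), CGAGAC in 14 (3.29%) and ACCGTA in 11 (2.59%), against 2.15%, 2.34%, 2.32% and 2.20% of the lower ranks. ACGCAG and GACGCA joined with a preceding A as AGACGCAG stood in 9 calls (2.12%), against 9.71% of the thresholded peaks and 0.836% of the lower ranks. The AT-rich words AAAAAA and AAAATT were found in 55.5% and 51.8% of the calls, as in 55.2% and 56.2% of the lower ranks and 24.3% and 24.3% of the thresholded peaks. A match describes letters in the window and does not locate a binding site. Words and GC content are not separate measures, since the 4 words are richer in G and C than the genome around them.

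**Figure D4:**
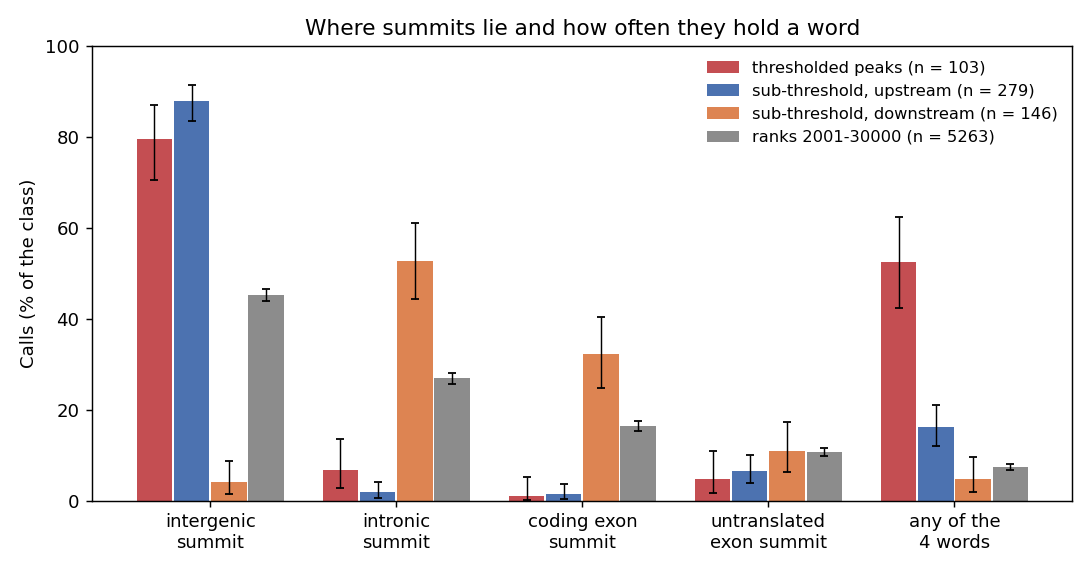
Percent of calls whose summit is intergenic, intronic, in a coding exon or in an untranslated exon, and percent with any of the 4 words within 50 bp of the summit, for thresholded peaks, upstream and downstream weak calls, and lower-ranked calls. Bars are shares with exact binomial 95% intervals. A word stands in 52.4% of thresholded peaks, 16.1% of upstream weak calls, 4.79% of downstream weak calls and 7.39% of lower calls.

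The 425 calls touched 425 protein-coding genes within 500 bp, which is 2.13% of the 19985 annotated, and the gene lists are read against that share. Of these 425 genes, 5 also had a thresholded peak within 500 bp, namely sec-61.G, nhr-110, nhr-117, cpt-2 and hex-3. Over all 19985 coding genes 233 had one, a similar share. The rule also left out calls that overlap a thresholded peak, so the 5 are not read as a depletion. Of 37 lists of genes grouped by symbol, 23 lay above 2.13% and 6 had no gene, and 113 of the 4633 genes on any list had a call. Most counts per list are small, the lists were chosen with earlier results known, and no list was tested.

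Of 81 cytosolic ribosomal protein genes 8 had a call (9.88%), led by rps-24, rpl-7, rps-17 and rpl-13. All 8 summits were upstream, from 146 bp at rps-27 to 425 bp at rpl-38. A thresholded peak stood at another 31 of the 81, against 233 of all 19985 coding genes. No gene was in both sets, which the rule against overlap with thresholded peaks favours. The replicates again differed, since rpl-13 ranked 244 in replicate 1 and 6896 in replicate 2, whereas rps-17 and rps-4 had no call in replicate 1 and ranked 347 and 205 in replicate 2. Of 45 translation factor genes 2 had a call, eif-3.E and eif-3.B, which encode parts of the initiation factor that holds the small ribosomal subunit, and neither had one in replicate 1. Mitochondrial ribosomal protein genes had 2 of 70 (mrps-22 and mrpl-53, both downstream) and aminoacyl-tRNA synthetase genes 1 of 32 (cars-1), near the background.

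Genes of protein folding, turnover and traffic followed. Of 95 heat shock and chaperone genes 6 had a call (6.32%), with bag-1, the BiP homologue hsp-3, the protein disulfide isomerase pdi-6 and the cyclophilin cyn-3 strongest. Of these 6 only pfd-5, a prefoldin subunit, had a downstream summit, 35 bp after the 5′ end. For the endoplasmic reticulum and secretion the count was 3 of 41 (7.32%), at sar-1, the small GTPase of export vesicles, at sec-61.G, a subunit of the protein channel, and at copg-1, a coat protein of Golgi vesicles. The summit counted for sec-61.G lay 477 bp downstream of its 5′ end, was nearer to that of F32D8.13, and was 709 bp from a thresholded summit. Vesicle traffic had 3 of 122 (2.46%), apb-1, sec-61.G and exc-7, of which exc-7 encodes an RNA-binding protein and came in by its symbol. The vacuolar ATPase, which acidifies lysosomes, had 3 of 21 (14.3%), vha-9, vha-12 and vha-11, all upstream at 237, 202 and 144 bp. Their ranks were 3604, 18123 and 624 in replicate 1, and 986, 231 and no call in replicate 2, so none was strong in both. Ubiquitin pathway genes had 4 of 115 (3.48%), ubc-6, uba-1, usp-39 and ubl-5, and the proteasome 1 of 33, rpt-1.

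Among genes of the nucleus and RNA, splicing and mRNA processing had 5 of 80 (6.25%), led by snr-4, hrpk-1, rsp-6 and rnp-8. RNA polymerase and Mediator had 4 of 67 (5.97%), at rpb-11, mdt-26, mdt-22 and rpb-9, of which only rpb-11 had its summit upstream. Nuclear pore and import genes had 4 of 45 (8.89%), ima-2, the nucleoporin genes npp-18 and npp-13, and lem-2, a protein of the inner nuclear membrane, all upstream. Cell division had 4 of 111, the kinetochore gene knl-3, cdc-7, cdk-2 and spd-3. Chromatin genes had 3 of 103, bet-2, swsn-3 of the SWI/SNF complex and set-4, DNA replication and repair had 1 of 76, rad-54.L2, and small RNA pathways had 1 of 63, pash-1. Histone genes had none of 83.

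In energy metabolism, the respiratory chain and ATP synthase had 3 of 46 (6.52%), nuo-2, cyc-1 and asb-2, all upstream. The symbol pattern of this list did not take in nduf-11. Mitochondrial import and dynamics had 2 of 24, timm-17B.1 and tin-9.1, which encode parts of the import machinery of the inner membrane. Glycolysis and the citric acid cycle had 3 of 50, idhb-1 and idhg-1, subunits of isocitrate dehydrogenase, and hxk-3, a hexokinase.

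Chemoreceptor genes had 20 of 1364 (1.47%), led by srh-95, str-90, srd-23 and srw-23, against 3 of 1364 with a thresholded peak. F-box and MATH/BTB genes had 5 of 412 (1.21%), led by fbxb-72, fbxa-140, fbxa-192 and fbxa-106. C-type lectin and antimicrobial genes had 5 of 356 (1.40%), with ilys-4, spp-19, clec-58 and clec-141 strongest. Detoxification genes had 1 of 188, ugt-5, cuticle collagens 1 of 175, col-85, and sperm genes 1 of 99, ssp-19. These 6 lists lay under the 2.13% of all coding genes. Slightly above it, nuclear hormone receptors had 6 of 269 (2.23%), with nhr-117, nhr-110, nhr-106 and nhr-277 strongest, and neuropeptide genes 4 of 140 (2.86%), nlp-18, nlp-41, nlp-33 and nlp-80. Homeobox, vitellogenin and tubulin and actin cytoskeleton genes had none.

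Of the tissue marker lists, the neuronal one had 5 of 33 (15.2%), at ric-19, syd-2, rgef-1, cha-1 and unc-17. The last 2, which encode the enzyme that makes acetylcholine and its vesicular transporter and share a first exon in the cholinergic locus, were counted from 1 call 102 and 100 bp upstream. The muscle list had 2 of 29, deb-1 and unc-45, the intestinal list 1 of 25, cpr-4, and the epidermal and germline lists had none of 51 and 41. No marker gene of the 5 lists had a thresholded peak. Over all 19985 coding genes 233 had one, so the absence from lists this short is not read as a contrast. These counts concern where calls lie and give no tissue of binding.

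**Figure D5:**
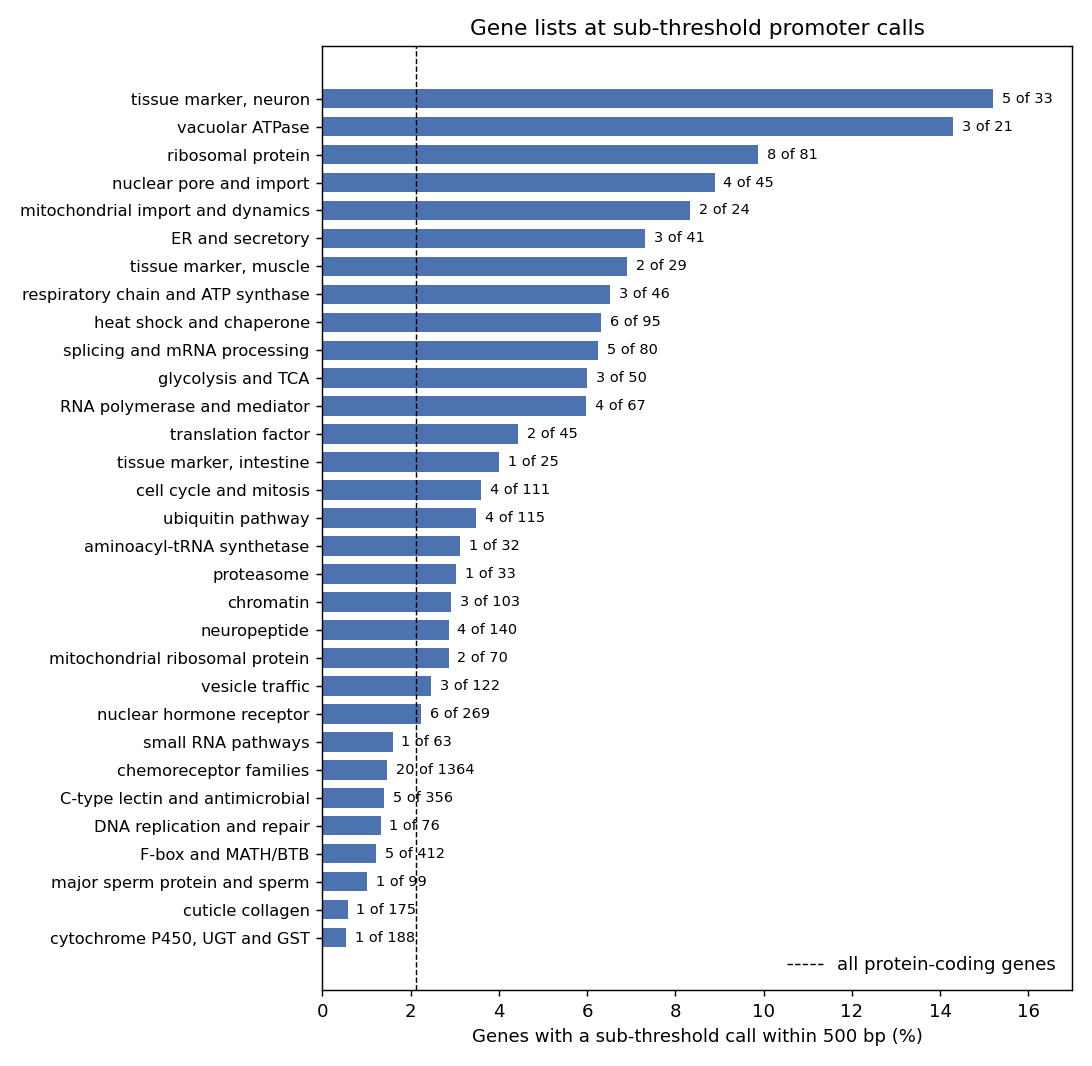
Percent of the genes of each list with a weak call within 500 bp (bars, with the number of genes beside each), for the 31 lists with at least 1 such gene, and the share over all protein-coding genes (dashed line, 2.13%). The neuronal marker, vacuolar ATPase and ribosomal protein lists have the highest shares, from 15.2% to 9.88%, on 5, 3 and 8 genes.

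For 5 genes 2 calls were nearest to the same 5′ end. At Y17G7B.21 the summits lay 141 bp upstream and 488 bp downstream, and both were present in both replicates, with signals of 19.4 and 31.8 for the upstream one. At nhr-117 they lay 32 and 283 bp downstream, and the call of nhr-110 lay nearby on chromosome V at 1624879. At ahcy-1, which encodes the enzyme that breaks down S-adenosylhomocysteine, they lay 493 bp upstream and 266 bp downstream. The 2 calls of F32D8.13 were paired with a single call of replicate 1 at rank 235, and those of knl-3 with a single call of replicate 2 at rank 281, so these pairs are not separate evidence in those replicates. In all, 11 of the 425 summits lay within 1000 bp of a thresholded summit.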

How the data were processed

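ZK546.5 ChIP-seq calls came from 2 biological replicates. Per the deposited file notes, each replicate list was made from that replicate's alignments and 1 control file, shared by both, the pooled list from both replicates, and the thresholded set from these lists by IDR. The sources used here do not give the aligner, the caller, the antibody's details or the level of the IDR filter. The authors deposited per call a signal value, used here only to rank within a list, and a q-value field of unstated scale, treated as a score. Each list ends at 30000 calls, and sequencing depth is unknown for lack of read counts, so intervals cover counting error over calls only.

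Coordinates are 1-based on ce11. Coding 5′ ends came from Ensembl release 115, and sequences from the RefSeq assembly of the same build. A replicate call matched within 200 bp between summits. Side was compared with two-sided Fisher's exact tests (0.5 added per cell for odds ratios, Benjamini-Hochberg over 2 tests, threshold 0.05). Recovery of side and matching of calls were checked first on simulated summits. These lay closer to a 5′ end than most of the 425 calls, and all simulated matches fell inside the 200 bp limit. The error rate of the tests was not checked. All other values are descriptions. Scripts ran in Python 3.11.15 (scipy 1.17.1, pandas 2.3.3, matplotlib 3.10.9, numpy 2.4.6).

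Members, words and lists were chosen with earlier results of these data known. Symbol patterns of some gene lists were loose, and matched unrelated genes or missed intended ones. How they match was corrected after the matches had been seen, so that some lists lost genes (chromatin from 123 to 103) and others gained some (tubulin and actin cytoskeleton from 46 to 52). This changed the number of genes with a call in 4 of 37 lists, from 5 to 3 for chromatin, 2 to 1 for small RNA pathways, 3 to 1 for cuticle collagen and 1 to 0 for homeobox. Named genes were those of the 20 strongest calls, the 10 best ranked in both replicates, up to 4 strongest per list, 3 at each end of the range with 2 beyond, genes with 2 calls, up to 5 strongest downstream or missing from a list, and those of printed sequences. Others were named after their values were seen. Alternatives changed the distance to a 5′ end, the transcripts used, the ranks, the matching of replicates, the windows and the replicate used.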

Additional observations from a re-analysis of the deposited data

How the results depend on the processing

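The odds ratio of lying upstream against thresholded peaks passed the test under all 11 alternatives, and that against lower ranks under 10 of 11. The exception was the list of replicate 1 on its own (adjusted p = 0.182, Fisher's exact test), with a range of 1.15 to 2.07 when either replicate was left out, and of 57% to 70.1% for the upstream share. The number of calls was 274 with 250 bp to a 5′ end, 209 down to rank 1000 and 1040 down to rank 5000, and 377 to 428 with 1 replicate left out. The share found in both lists was 82.3% down to rank 1000, 59.4% down to rank 5000, 55.3% with 100 bp between summits, 79.5% with 500 bp and 77.6% by overlap of intervals. With 1 replicate left out, the share found in the other was 84.0% to 88.7%, and among its strongest 2000 it was 37.6% to 41.9%. The share among the strongest 2000 of both was 14.2% with 250 bp to a 5′ end, 20.6% down to rank 1000, 4.23% down to rank 5000 and 7.53% with 100 bp between summits. Mean GC content was 34.8% and 32.4% with 250 and 1000 bp to a 5′ end, 34.4% and 32.4% down to ranks 1000 and 5000, and 30.9% to 36.2% with 1 replicate left out. The cause of these shifts was not tested. Leaving out calls within 1000 bp of a thresholded summit was added after seeing the data and left 414 calls. The alternative with no value added to each cell changed the odds ratios but not the counts tested. Its passes were therefore fixed in advance. No paired analysis was possible because there was 1 group. Binding and background are not separated at these ranks, and depth is unknown.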

Other observations

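The deposited q-value field of the 425 calls ran from 0.245 to 1.83. That of the 103 thresholded single-direction peaks ran from 1.37 to 2.05, so the classes overlapped in it. Their separation in signal is largely fixed by the rule, which took the weak calls from below the strongest calls by signal. Calls of the same ranks with coding 5′ ends on both strands held any of the 4 words in 33 of 102 windows (32.4%), against 12.2% of the 425 calls at single-direction promoters and 8.11% of the 1209 calls with no coding 5′ end near. The 102 calls also differed from the 425 in median rank (693 against 1020) and mean GC content (37.2% against 33.3%). Their median distance to a 5′ end was 130.5 bp against 241 bp, and 82.4% against 65.6% lay upstream. The part of these differences in the word share was not tested.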
